A study of Mus musculus with 6 samples.

Results

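The genes that carry peptides to the cell surface on major histocompatibility complex (MHC) class I molecules were examined in muscle macrophages (MPs) with and without Cripto. They were chosen by name, as the 10 genes H2-K1, H2-D1, B2m, Tap1, Tap2, Tapbp, Psmb8, Psmb9, Psmb10 and Nlrc5, and 10 of 10 were found among the 13008 genes of the deposited table. RNA-seq was performed on F4/80+, Ly6CLow MPs sorted from skeletal muscle on day 5 after cardiotoxin injury, in 3 Control and 3 Cripto KO samples. Mice of both groups were C57BL/6J, 3 months old and labelled male. Control mice are labelled wild type, whereas the methods of the study describe GFP-Control mice that carry Tg:LysMCre and the R26mTmG reporter. Cripto KO mice are labelled Tg:LysMCre::Cripto-/-. Cre is driven by the lysozyme M gene, so that the deletion is directed at myeloid cells. In the study's account the sequenced cells were also sorted for GFP, the reporter that Cre switches on. It describes the deletion as incomplete, and as more efficient in GFP+ cells than in all MPs. The labels do not say that the 3 samples of a group came from separate animals, whereas the study calls them biological replicates. The p-values measure the spread between these samples.

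A class I molecule is a heavy chain, here H2-K1 or H2-D1, held together with beta-2-microglobulin, the product of B2m, around a short peptide. Proteasomes cut cytosolic proteins into such peptides, and in immune cells the catalytic subunits encoded by Psmb5, Psmb6 and Psmb7 can be replaced by the immunoproteasome subunits encoded by Psmb8, Psmb9 and Psmb10. Tap1 and Tap2 form the pump that moves peptides into the endoplasmic reticulum, where tapasin, the product of Tapbp, bridges the pump and the empty class I molecule. Nlrc5 is a transcriptional activator of class I genes, and interferons raise most of the pathway, in part through Irf1. Nearly all nucleated cells carry class I, and macrophages use it to display their content to CD8+ T cells.

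The recovered reads amounted to 12688968 to 14141773 in Control and 14633880 to 15659847 in Cripto KO samples, and 3 reads corresponded to a normalized value of 0.222 to 0.286. The macrophage markers Adgre1, Cd68, Csf1r, Fcgr1, Mertk and Itgam summed to 5030 to 5500 in Control and 4830 to 5380 in Cripto KO samples, against at most 74.9 for 4 markers of Ly6CHigh monocytes. Control replicate 1 did not match its label: Xist was 171 there and at most 0.885 in the other 5 samples, and 4 chromosome Y genes summed to 0.368 there and to between 130 and 159 in the others. Control replicate 2 stood apart in Lyz2, the lysozyme M gene, with a normalized value of 11100 where the other 5 samples had 21.2 to 28.3. Control replicates 1 and 3, at 25.2 and 21.4, were thus at the level of the Cripto KO samples. The Control samples, all labelled wild type, were therefore not uniform in the gene that drives Cre, and the cause was not tested. Since the Cripto gene itself, Tdgf1, was not analysed here, its deletion gave no check of the labels. Because of the mismatch with its label, values of the 10 genes are given with and without Control replicate 1. Their median is also given without Control replicate 2.

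The 10 genes were expressed at very different levels. Divided by the length of the longest principal transcript (GENCODE, GRCm38), the median normalized value per kilobase over the 6 samples was 4090 for B2m, 2430 for H2-D1 and 1630 for H2-K1. Per kilobase the light chain thus stood above each heavy chain, and the ranges of these 3 genes over the samples did not overlap. Tapbp followed at 121 per kilobase (range 117 to 133), above Psmb8 at 98.8 (94.0 to 116) and Psmb10 at 70.3 (67.3 to 82.9), again without overlap. Tap1 at 41.6 (36.1 to 46.4), Psmb9 at 35.9 (31.5 to 39.8) and Tap2 at 32.4 (30.9 to 36.4) had overlapping ranges, so that their order was not resolved. Nlrc5 was the lowest at 3.64 (3.38 to 4.78), and Ciita, its relative that activates MHC class II genes, had 1.59 (1.13 to 2.24). Among the constitutive catalytic subunits, Psmb6 was at 339 per kilobase, Psmb5 at 87.0 and Psmb7 at 84.4. Psmb9 was thus far below its constitutive counterpart Psmb6, whereas Psmb8 lay above Psmb5 in every sample.

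**Figure D1:**
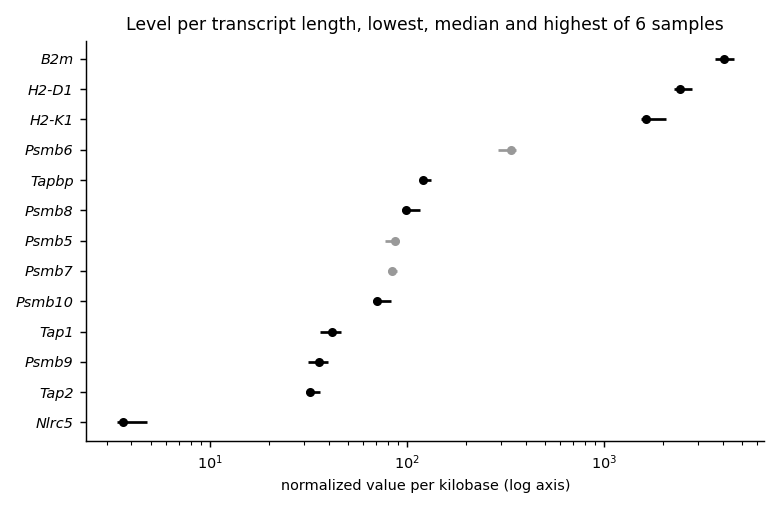
Normalized value per kilobase of transcript on a log axis, for the 10 class I presentation genes (black) and the 3 constitutive catalytic subunits Psmb5, Psmb6 and Psmb7 (grey). Points are medians and lines run from the lowest to the highest of the 6 samples; B2m, at 4090, stands highest and Nlrc5, at 3.64, lowest.

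On GRCm38, 7 of the 10 genes lie on chromosome 17, within 1.35 Mb. H2-K1 was placed at chr17:33996017-34000347 on the minus strand, H2-D1 at chr17:35262730-35267499 and Tapbp at chr17:33915899-33929292, both on the plus strand. Psmb9, Tap1, Psmb8 and Tap2 follow each other within 34335 bases, and Psmb9 (minus strand) and Tap1 (plus strand) overlap by 212 bases. B2m (chr2:122147686-122153083), Psmb10 (chr8:105935735-105938444) and Nlrc5 (chr8:94434356-94527272) lie elsewhere. Of the 31-base words of their transcripts, H2-K1 shared 22.8% and H2-D1 26.7% with other genes (11.1% of those of H2-K1 with H2-D1, and 13.8% of those of H2-D1 with H2-K1), so that their levels depend on how RSEM divided shared reads. Strand use in the counting was not given in the sources used here, and reads in the 212 bases shared by Psmb9 and Tap1 cannot be told apart without it. Tapbp overlaps Zbtb22, another gene analysed here, on the same strand, where strand use would not separate the reads. Tapbp shared 4.6% of its words with other genes, and 2.4% with Zbtb22. Nlrc5 overlaps another gene analysed here on the opposite strand. B2m, Tap2, Psmb8 and Psmb10 overlap only genes that were not analysed here.

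Class I promoters are known for an upstream enhancer that NF-kB and interferon regulatory factors (IRF) can bind, and for X and Y boxes through which Nlrc5 acts. RefSeq promoter windows (GRCm38.p6) were found for 8 of the 10 genes, and the 250 bases upstream of the start were searched on both strands for GGGATTCCC (NF-kB type), AANNGAAA (IRF type), TGACG (the core of the X2 box) and CCAAT (the Y box core, ATTGG on the other strand). Stretches with these matches in capitals are printed for the genes that encode the class I molecule itself. H2-K1 and H2-D1 are the 2 members that hold the NF-kB type motif, and the B2m stretch holds an IRF type match without it.
H2-K1 (chr17:34000428-34000457, minus strand): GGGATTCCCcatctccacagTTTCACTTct
H2-D1 (chr17:35262924-35262953, plus strand): GGGATTCCCcatctcctcagTTTCACTTct
B2m (chr2:122147539-122147568, plus strand): taagaacatgaAACTGAAAatgggaaagtc

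The NF-kB type motif occurred in 0.301% of 32851 promoter windows and the IRF type motif in 21.3%, the latter in 3 of the 8 members, H2-K1, H2-D1 and B2m. TGACG was found in 5 of the 8 members (17.8% of windows) and CCAAT in 6 (33.8% of windows). The same 3 genes hold TGACG and ATTGG on 1 strand with a gap of 20 bases, shown next with both cores in capitals.
H2-K1 (chr17:34000359-34000388, minus strand): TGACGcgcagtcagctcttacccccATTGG
H2-D1 (chr17:35262993-35263022, plus strand): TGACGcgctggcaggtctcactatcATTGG
B2m (chr2:122147609-122147638, plus strand): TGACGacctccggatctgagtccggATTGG

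This arrangement was present in 30 of 32851 windows (0.0913%). The gap was taken from these 3 promoters, so that their matches are a description. Of the 13 other class I heavy chain and class I-like genes with a window, 1 had it, H2-M3. Psmb8 and Psmb10 held none of the motifs, which says only that these letters are not in the windows searched.

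Whether loss of Cripto was accompanied by a change in class I presentation was asked by comparing Control with Cripto KO MPs. Fold changes are log2(Control/Cripto KO), so that positive values mean a higher level in Control. None of the 10 genes passed the threshold of an adjusted p-value under 0.05 in limma, where 0.131% of all genes did. B2m alone had an unadjusted p-value under 0.05, with its level higher in Control, where 4.6% of all genes had one in that direction. The log2 fold change was above 0 for 10 of 10 genes, beside 52.6% of all genes, but small, from 0.008 to 0.207 with a median of 0.128 beside 0.011 over all genes. The number above 0 was 9 after quantile normalization, without Control replicate 1 and without Cripto KO replicate 3, Tap2 being below 0 each time. The fits with edgeR and DESeq2 on the recovered reads also called 0 of the 10 genes, with 1 unadjusted p-value under 0.05 in each. Over the 10 genes, the 95% intervals of the fold ran from 0.891 (Tap2) to 1.339 (Nlrc5). In bulk samples, fewer cells that express a gene and less RNA per cell cannot be told apart.

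**Figure D2:**
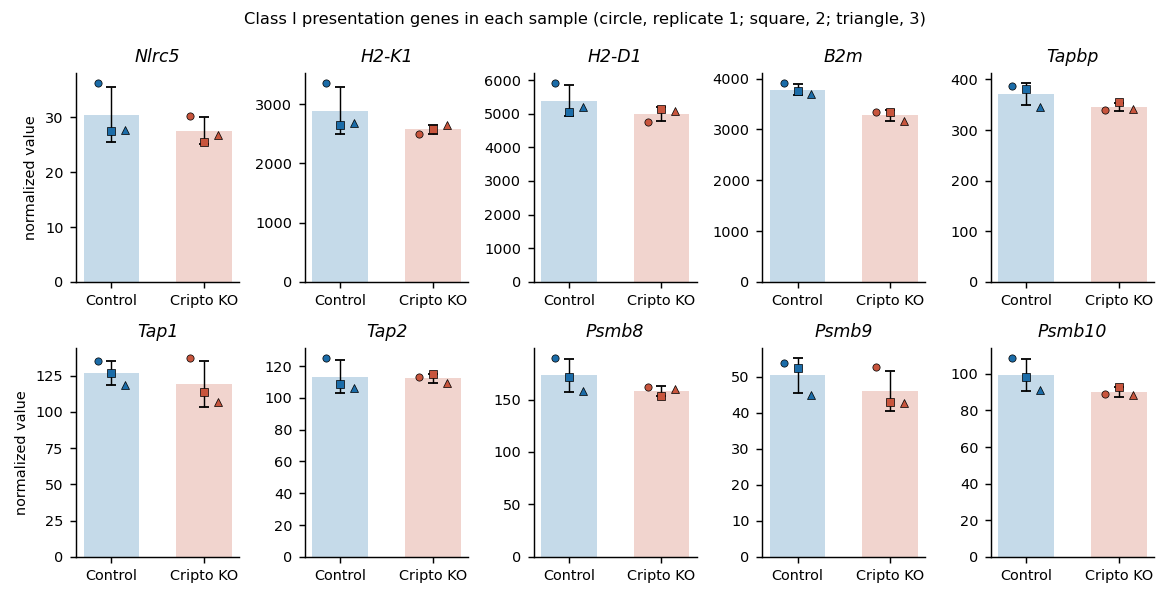
Normalized value of each class I presentation gene (reads plus 0.5 per 1000000 of a normalized library size) in 3 Control (blue) and 3 Cripto KO (red) samples; bars are means and error bars SD. The groups overlap for every gene but B2m, and Control replicate 1 (blue circle) is the highest of the Control samples in every panel.

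B2m, the light chain shared by all classical class I molecules, was 3910, 3751 and 3694 in Control replicates 1, 2 and 3, and 3344, 3335 and 3157 in Cripto KO replicates 1, 2 and 3. All Control samples lay above all Cripto KO samples, as was the case in that direction for 8.02% of all genes, and B2m was the only 1 of the 10 genes for which the groups did not overlap. The means were 3785 ± 112 (SD, n = 3) and 3279 ± 106 (SD, n = 3), a log2 fold change of 0.21 (standard error, SE, 0.084, 95% interval 0.017 to 0.397, adjusted p = 0.538, limma). This is 1.154-fold (95% interval 1.012 to 1.317), and it rested on at least 45257 reads in each sample. Without Control replicate 1 the log2 fold change of B2m was 0.18 (adjusted p = 0.484, limma).

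H2-K1, which encodes the heavy chain of the K molecule, was 3352, 2639 and 2681 in the Control and 2491, 2575 and 2653 in the Cripto KO replicates 1, 2 and 3. Control replicate 1 stood far above the other samples of H2-K1, while Control replicate 2 lay below Cripto KO replicate 3. The log2 fold change of H2-K1 was 0.16 (SE 0.107, limma adjusted p = 0.722) and 0.05 without Control replicate 1. H2-D1, the heavy chain of the D molecule, was 5908, 5046 and 5206 in the Control and 4747, 5125 and 5094 in the Cripto KO samples. Here too the groups overlapped, since Control replicate 2 was below 2 of the Cripto KO samples. For H2-D1 the log2 fold change was 0.11 (SE 0.103, limma adjusted p = 0.806), and 0.04 without Control replicate 1.

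The peptide pump and its partner differed little between the groups. Tap1 was 135.2, 126.7 and 118.7 in the Control and 137.1, 113.4 and 106.7 in the Cripto KO replicates 1, 2 and 3. Its highest and its lowest sample were both Cripto KO samples, and Tap1 was the only gene of the 10 whose highest value was not in Control replicate 1. Its log2 fold change was 0.10 (SE 0.099, limma adjusted p = 0.817) and 0.05 without Control replicate 1. Tap2 was 125.1, 108.9 and 106.3 in the Control and 113.4, 114.8 and 109.4 in the Cripto KO samples. All Cripto KO samples lay within the range of Control for Tap2. Its means, 113.5 ± 10.2 and 112.5 ± 2.79 (SD, n = 3 each), gave a log2 fold change of 0.008 (SE 0.077, 95% interval -0.166 to 0.182, limma adjusted p = 0.986) and of -0.064 without Control replicate 1. Tapbp was 386.1, 380.4 and 345.5 in the Control and 340.1, 354.8 and 341.2 in the Cripto KO samples. Control replicates 1 and 2 of Tapbp were above every Cripto KO sample and Control replicate 3 was among them. Its log2 fold change was 0.10 (SE 0.067, limma adjusted p = 0.718) and 0.07 without Control replicate 1.

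The immunoproteasome subunits had similar fold changes. Psmb8, which encodes the chymotrypsin-like subunit beta5i, was 189.5, 171.7 and 158.2 in the Control and 161.7, 153.1 and 159.9 in the Cripto KO replicates 1, 2 and 3. Control replicate 3 of Psmb8 lay among the Cripto KO samples. Psmb8 had a log2 fold change of 0.13 (SE 0.077, limma adjusted p = 0.692) and 0.06 without Control replicate 1. Psmb9, which encodes beta1i, was 53.85, 52.26 and 44.85 in the Control and 52.54, 43.00 and 42.63 in the Cripto KO samples. In each group of Psmb9 samples a low value stood apart from a high one, and Cripto KO replicate 1 was at the level of Control replicates 1 and 2. For Psmb9 the log2 fold change was 0.13 (SE 0.108, limma adjusted p = 0.776) and 0.08 without Control replicate 1. Psmb10, which encodes beta2i, was 108.6, 98.05 and 91.20 in the Control and 88.87, 93.05 and 88.27 in the Cripto KO samples. Only Control replicate 3 and Cripto KO replicate 2 crossed for Psmb10, which had a log2 fold change of 0.14 (SE 0.078, 95% interval -0.039 to 0.314, limma adjusted p = 0.688) and of 0.07 without Control replicate 1.

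Nlrc5 was 36.26, 27.59 and 27.63 in the Control and 30.32, 25.59 and 26.78 in the Cripto KO replicates 1, 2 and 3. Of the 10 genes it had the fewest reads, between 338 and 492 a sample. Control replicate 1 was the highest sample, and the other Control samples of Nlrc5 lay within the range of Cripto KO. Its log2 fold change was 0.14 (SE 0.126, limma adjusted p = 0.800), and 0.006 without Control replicate 1.

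**Figure D3:**
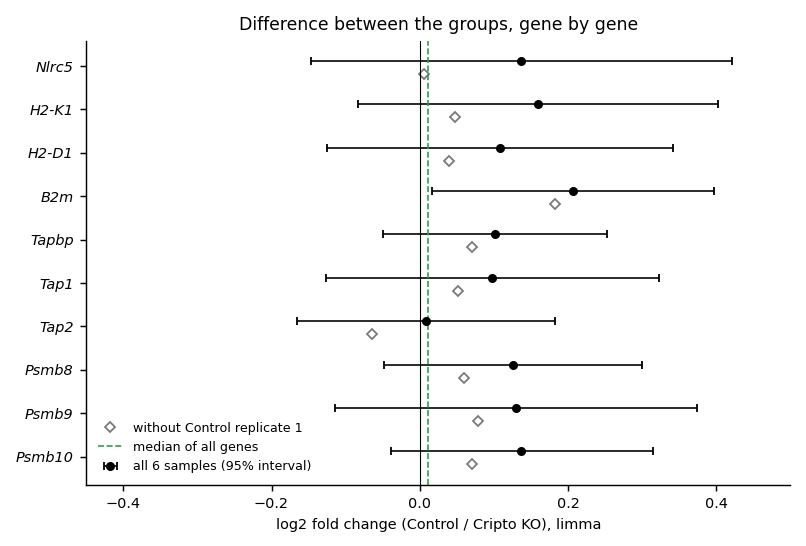
Log2 fold change (Control/Cripto KO) of each gene in limma with its 95% interval (black), the value without Control replicate 1 (open diamonds) and the median of all genes, 0.011 (dashed line). The interval of every gene but B2m includes 0, and each value lies closer to 0, or below it, without Control replicate 1.

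Across the samples the 10 genes moved with Control replicate 1. It was the highest of the 6 samples for 9 of 10 genes, and the highest of the 3 Control samples for 10 of 10, beside 37.5% of all genes. Relative to the mean of each gene over the 6 samples, the median log2 difference over the 10 genes was 0.179 in Control replicate 1, 0.052 in Control replicate 2 and -0.050 in Control replicate 3. The Cripto KO samples had medians of -0.052, -0.078 and -0.082, close to Control replicate 3. The 10 genes together took 1.36% of the reads of Control replicate 1, 1.19% and 1.2% in the other Control samples, and 1.15% to 1.17% in the Cripto KO samples. Without Control replicate 1 the log2 fold change was above 0 for 9 of 10 genes, beside 52.0% of all genes, with a median of 0.055. Without Control replicate 2, the sample with high Lyz2, 10 of 10 genes were above 0, from 0.035 to 0.221 (H2-K1) with a median of 0.138. The median of the 10 genes was 0.193 without Control replicate 3. Control replicate 1 is also the sample that did not match its label, and it had the highest sum of 5 muscle fiber markers, 62.0, where the other samples had 11.8 to 45.2. Its sums of dendritic cell (7.07), B cell (11.0) and endothelial markers (48.5) were the highest as well. Those of macrophage, Ly6CHigh monocyte, neutrophil and fibroblast markers were highest in other samples. Whether any of this contributed to the class I values was not tested.

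**Figure D4:**
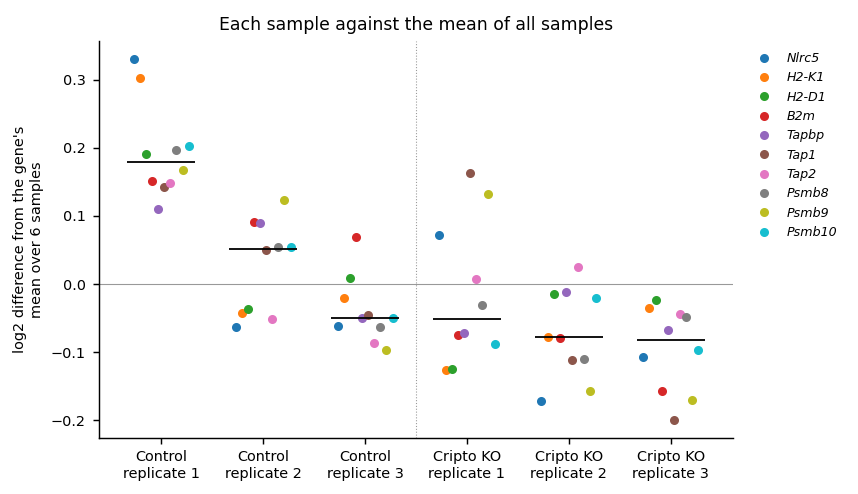
Log2 difference of each sample from the gene's mean over the 6 samples, 1 point for each of the 10 genes and a line at their median. All points of Control replicate 1 lie above 0, with a median of 0.179, and all points of Cripto KO replicate 3 lie below 0, with a median of -0.082.

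Ratios within a sample do not depend on its scaling. The log2 ratio of Psmb8 to its constitutive counterpart Psmb5 was 1.294, 1.306 and 1.113 in the Control and 0.979, 0.951 and 0.992 in the Cripto KO replicates 1, 2 and 3. All Control values of this ratio lay above all Cripto KO values. The difference was 0.26 (exact permutation test, two-sided, p = 0.1, adjusted p = 0.5 over 5 ratios), and 0.1 is the smallest p that 3 against 3 samples allow, so that no ratio could reach 0.05. Without Control replicate 1 this difference was 0.24. It combined the higher Psmb8 of Control with a lower Psmb5, which was 77.27, 69.44 and 73.16 in the Control and 82.01, 79.18 and 80.41 in the Cripto KO samples, a log2 fold change of -0.14 (SE 0.069, limma adjusted p = 0.640).

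The other ratios overlapped between the groups. Psmb10 to Psmb7 was 0.226, 0.017 and -0.173 in the Control and -0.116, -0.089 and -0.169 in the Cripto KO samples on the log2 scale, a difference of 0.15 (exact permutation p = 0.4, adjusted p = 0.667), which was 0.05 without Control replicate 1. Psmb9 to Psmb6 ranged from -2.638 to -2.221 in Control and from -2.693 to -2.141 in Cripto KO samples (difference 0.07, exact permutation p = 0.9). The ratios of the heavy chains to the light chain overlapped between the groups as well. H2-K1 to B2m had mean log2 ratios of -0.40 ± 0.15 in Control and -0.35 ± 0.089 in Cripto KO samples (SD, n = 3 each, exact permutation p = 0.6). H2-D1 to B2m had mean log2 ratios of 0.51 ± 0.084 and 0.60 ± 0.093 (SD, n = 3 each, exact permutation p = 0.2, adjusted p = 0.5). The ratios take values not divided by transcript length. On that scale H2-D1 lay above B2m in every sample, the reverse of their order per kilobase.

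**Figure D5:**
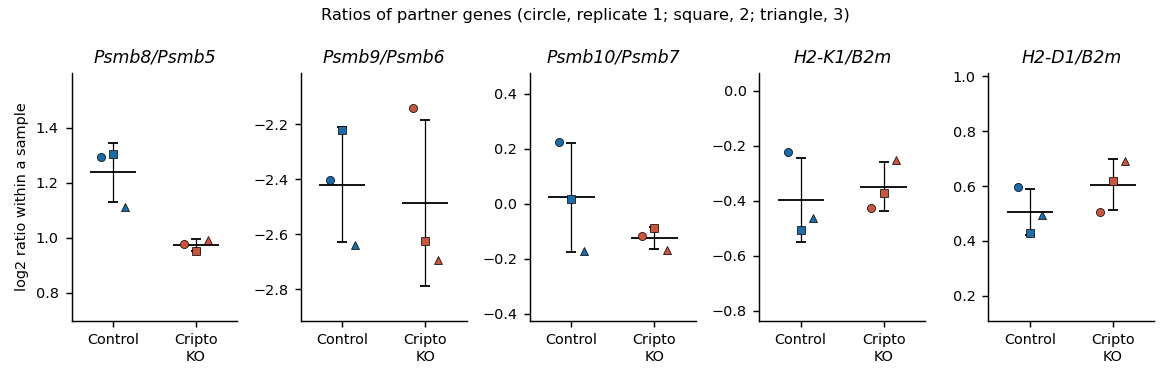
Log2 ratio of partner genes within each sample, for 3 Control (blue) and 3 Cripto KO (red) samples with group means and SD; all panels cover the same span of log2 units. The groups do not overlap for Psmb8/Psmb5, from 1.113 to 1.306 in Control and from 0.951 to 0.992 in Cripto KO samples, and overlap in the other 4 ratios.

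The rest of the pathway was described from lists of its genes, in none of which a gene passed the adjusted threshold in limma. Of 16 other class I heavy chain and class I-like genes, 11 had a log2 fold change above 0 (median 0.141), beside 52.6% of all genes. Of the 16 genes, 2 had an unadjusted p-value under 0.05 (1 with DESeq2, 2 with edgeR), both higher in Control in limma, where 4.6% of all genes had one in that direction. Without Control replicate 1 the number above 0 was 6, beside 52.0% of all genes, and the median was -0.023. Those with the highest mean values were Fcgrt, an antibody transporter, H2-T23, which presents leader peptides to NK receptors, and H2-Q4, with log2 fold changes of 0.15, 0.16 and 0.13 and adjusted p-values of 0.732, 0.651 and 0.823 (limma). The log2 fold change without Control replicate 1 was 0.06 for Fcgrt, 0.08 for H2-T23 and -0.02 for H2-Q4. The genes with an unadjusted p-value under 0.05, named here after their values were seen, were H2-T22 (log2 fold change 0.25, limma adjusted p = 0.443) and H2-T24 (0.27, limma adjusted p = 0.524). Their values were 0.21 each without Control replicate 1 (limma adjusted p = 0.411 for H2-T22 and 0.548 for H2-T24), and the unadjusted p-value of H2-T24 was no longer under 0.05. In that fit H2-Q10 (-0.74), H2-M2 (-1.01) and Cd1d1 (-0.37) had an unadjusted p-value under 0.05, all higher in Cripto KO. H2-T22 was 133.1, 120.3 and 126.5 in the Control and 114.8, 100.3 and 105.0 in the Cripto KO samples, without overlap, as in that direction for 8.02% of all genes. The groups did not overlap for H2-T24 either, nor for H2-M2, which had 6 to 26 reads and was higher in Cripto KO. How many reads these related genes share was not measured.

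All 8 genes of peptide loading, trimming and quality control had a log2 fold change above 0, beside 52.6% of all genes (median 0.095, and 0.164 without Control replicate 1). The number was 7 of 8 without Control replicate 2 and without Cripto KO replicate 3. In contrast to the 10 genes above, Control replicate 2 was the highest sample for 7 of them. Pdia3, a thiol oxidoreductase that works beside tapasin in the loading complex, was 609.5, 746.4 and 661.7 in the Control and 559.4, 606.1 and 575.3 in the Cripto KO samples. The groups did not overlap for Pdia3, as in that direction for 8.02% of all genes. Its log2 fold change was 0.21 (SE 0.085, limma adjusted p = 0.537) and 0.28 without Control replicate 1. The chaperones Calr and Canx had log2 fold changes of 0.14 and 0.10 (adjusted p = 0.690 and 0.728, limma), and of 0.22 and 0.15 without Control replicate 1. Of 8 genes of the proteasome activator and of proteasome assembly, 6 were above 0, beside 52.6% of all genes, with a median of 0.054. Of these 8 genes 0 had an unadjusted p-value under 0.05 in limma, edgeR or DESeq2. The PA28 subunits Psme1 and Psme2, which interferon raises together with the immunoproteasome, had 0.13 and 0.12, and the assembly factor Pomp 0.08 (adjusted p = 0.711, 0.708 and 0.815, limma). These values were 0.08 for Psme1 and Psme2 and 0.11 for Pomp without Control replicate 1. Of the 3 constitutive subunits, 1 was above 0 (median -0.011), Psmb6 at 0.06 beside Psmb7 at -0.01. Both were at 0.02, and Psmb5 at -0.18, without Control replicate 1.

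Among 18 regulators of class I genes 12 had a log2 fold change above 0, beside 52.6% of all genes, with a median of 0.073 (0.042 without Control replicate 1). Jak1, the kinase that acts at interferon receptors, had a log2 fold change of 0.15 (limma adjusted p = 0.537). It was 181.2, 180.9 and 187.1 in the Control and 157.8, 168.9 and 168.3 in the Cripto KO samples, without overlap, as in that direction for 8.02% of all genes. Irf1, which binds the IRF motif and activates class I genes, was 127.5, 102.8 and 105.7 in the Control and 117.0, 100.8 and 111.8 in the Cripto KO samples. Its groups overlapped throughout (log2 fold change 0.02, adjusted p = 0.964, limma, and -0.07 without Control replicate 1). Irf8 and Ifngr1, the other highly expressed genes of the list, had 0.02 and -0.01, and Ciita 0.13 (adjusted p = 0.963, 0.983 and 0.916, limma), and without Control replicate 1 they had 0.05, -0.07 and 0.11.

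Because class I genes are active in most cells, the markers of other cells are given beside these values. Of 6 fibroblast markers 6 were higher in Cripto KO samples, 5 with an unadjusted p-value under 0.05 and 0 with an adjusted one in limma, where 3.99% of all genes had an unadjusted one in that direction. They summed to 459 to 481 in Control and 540 to 591 in Cripto KO samples. Muscle fiber markers summed to 28.7 to 62.0 in Control and 11.8 to 45.2 in Cripto KO samples. Of these 5 markers 3 had an unadjusted p-value under 0.05, all higher in Control, where 4.6% of all genes had one in that direction. They were Myh4, Ckm and Tnnt3, with log2 fold changes of 3.58, 1.71 and 0.89, and 0 had an adjusted one (limma). Acta1 had 0.28 and Mylpf -0.07, and both were highest in Cripto KO replicate 1. The sums of the 2 groups overlapped for endothelial cells (38.8 to 48.5 and 39.9 to 46.6), neutrophils (98.4 to 105 and 92.9 to 101), dendritic cells (3.84 to 7.07 and 4.32 to 6.00) and B cells (6.16 to 11.0 and 8.10 to 8.92), as well as for Ly6CHigh monocytes (43.6 to 62.2 and 58.0 to 74.9). Tie1, an endothelial receptor, was higher in every Cripto KO than in every Control sample (log2 fold change -0.52, limma adjusted p = 0.494). That held for 837 of 13008 genes. Of the 5 endothelial markers 3 were higher in Control (Kdr 0.385, Pecam1 0.132 and Emcn 0.036), and Cdh5 had -0.195. S100a8, a neutrophil marker with 8 to 22 reads, was also higher in every Cripto KO sample (log2 fold change -0.523, limma adjusted p = 0.712). Ly6c2, a monocyte marker with 33 to 46 reads, was higher in every Control sample (0.313, limma adjusted p = 0.731), as were 8.02% of all genes. Of the 4 neutrophil markers analysed 2 were higher in Control (Csf3r 0.078 and S100a9 0.185), but S100a9 had 0 reads in every sample. Cxcr2 had 6 to 16 reads. The neutrophil sum was thus almost only Csf3r, with means of 99.63 in Control and 94.41 in Cripto KO samples. Of the 4 Ly6CHigh monocyte markers 2 were higher in Cripto KO samples (Ccr2 -0.296 and Vcan -0.094). Of the B cell markers analysed, 2 were at 3 reads or fewer in every sample. Markers of T and NK cells were not analysed here. The part of other cells in the class I values was not tested.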

How the data were processed

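Total RNA of sorted MPs was sequenced on 3 Control and 3 Cripto KO samples. The authors trimmed reads with Cutadapt 1.7.1, used RSEM 1.2.20 to quantify them against mouse transcripts (GRCm38, release 91), and normalized them with limma. The deposited values are a normalized signal, found to equal reads plus 0.5 per 1000000 of a normalized library size. Of 78048 values, 100.0% gave whole reads within 0.01 read.

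The main test was limma 3.58.1 (lmFit, eBayes with trend, R 4.3.3) on log2 values without a pseudocount, fitted to all 13008 genes without a replicate block, with Benjamini-Hochberg adjustment. Alternatives were a pseudocount of 1, a mean value of at least 1, quantile normalization, no variance trend, edgeR 4.0.16 (17 genes called) and DESeq2 1.42.0 on recovered reads, a block for the replicate number, and fits without 1 sample. Ratios were compared by exact permutation tests. Tests were first tested on simulated data. Members and gene lists were chosen with earlier results of these data known. Named were all members and, of each list, the genes past the threshold, the 3 with the highest mean, and Psmb5, Psmb6, Psmb7, Irf1 and Ciita; 1 gene of the rule is not reported here. H2-Q2 and H2-T3 were not analysed here. Lengths and positions are from GENCODE mouse release 21, promoters from RefSeq.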

Additional observations from a re-analysis of the deposited data

How the results depend on the processing

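In all 13 alternatives 0 of the 10 class I genes and 0 genes of the pathway lists were called, and the smallest adjusted p of a class I gene was 0.413 (B2m, DESeq2). Over all genes, 17 were called in limma, 6 after quantile normalization, 5 without the variance trend and 71 with DESeq2, and between 5 (without Cripto KO replicate 2) and 31 (without Control replicate 1) when 1 sample was left out. With a replicate block 2 genes were called and 0 of the 10. Deviations of same-numbered samples correlated at -0.21, -0.005 and 0 over 11960 genes, and no sample correlated best with its own number. These values gave no sign of pairing by number. They cannot exclude it, since the deviations were taken from means of only 3 samples. The log2 fold change of Tap2, 0.008, was -0.037 after quantile normalization and between -0.064 and 0.053 with 1 sample left out. With 1 sample left out, the difference in Psmb9 to Psmb6 ran from -0.037 to 0.239 and that in H2-K1 to B2m from -0.135 to 0.007. The cause was not tested. Each of the 10 genes had at least 338 reads in each sample, and the 95% interval of the fold change included 0 for 9 of them.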
